A study of Homo sapiens with 16 samples.

Results

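The genes described here are 10 members of the WNT pathway and its responses, chosen by gene symbol from the array's annotation and taken with all their 41 probe sets out of 18239 genes and 49293 probe sets that are no controls. They were grouped by role into the secreted antagonists DKK1, DKK2, DKK3 and SFRP1, the ligand WNT5A, the receptor LGR5, the nuclear factors LEF1 and TCF7L2, and the feedback inhibitors AXIN2 and NKD1. They were measured in SK-N-SH, an established human neuroblastoma line whose cultures hold neuroblast-like (adrenergic) and flat, substrate-adherent (mesenchymal) cells. In GRCh38.p14, DKK1 and TCF7L2 lie on chromosome 10, DKK2 and LEF1 on chromosome 4, WNT5A on 3, SFRP1 on 8, DKK3 on 11, LGR5 on 12, NKD1 on 16 and AXIN2 on 17. The 16 arrays, 4 in each of 4 groups, held untreated cells and cells kept in 10 µM risperidone, an antipsychotic that blocks dopamine and serotonin receptors, for 6, 24 or 48 h. The protocol states that control cells received the DMSO vehicle, although the sample labels call them untreated, and no harvest time is given for them. The same 4 untreated arrays were therefore set against every exposure time. An effect of risperidone common to all exposure times cannot be told apart from a difference particular to those untreated arrays.

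In WNT signalling through beta-catenin, a secreted WNT protein binds a Frizzled receptor together with LRP5 or LRP6, beta-catenin escapes degradation, enters the nucleus and switches on genes with partners of the TCF and LEF family. Secreted antagonists stop this outside the cell, either by binding LRP5 and LRP6 (DKK1 and DKK2) or by binding the WNT protein (SFRP1), while AXIN2 and NKD1 act inside the cell and are themselves switched on by the pathway. WNT signals take part in forming the neural crest, the embryonic tissue from which the sympathetic lineage and neuroblastoma arise.

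Values are log2 robust multi-array average (RMA) expression values, so that a difference of 1 is a doubling, and each gene is represented below by whichever of its probe sets was brightest on average. Changes are risperidone minus untreated, ± the standard error from limma, and a gene is called changed at an adjusted p under 0.05 over 13680 genes. At 6 h, 8 of the 10 genes were called lower, against 16.7% of all tested genes, and 1 was called higher, against 36.6%. At 24 h 8 were lower (16.9% of all genes) and 2 higher (35.2%), and at 48 h 8 were lower (21.0%) and 1 higher (36.0%). The 10 genes were chosen with earlier results of these data known, so these counts describe them and do not test them as a set. The 8 lower genes were the same at the 3 times: all 4 antagonists, WNT5A, LGR5, LEF1 and TCF7L2. AXIN2 was higher at the 3 times and NKD1 passed as higher at 24 h. In RNA from whole cultures, fewer cells of a type and less RNA per cell cannot be told apart. The median change of the 10 genes was -1.07 at 6 h, -1.15 at 24 h and -1.32 at 48 h, while that of all tested genes was 0.09, 0.09 and 0.08. In the moderated F test over the 3 exposure times together, 9 of the 10 passed, NKD1 being the exception, against 66.6% of all genes. The 4 treated arrays of a time lay entirely below the untreated range in 8 genes at each time (14.8%, 15.2% and 17.8% of all genes at 6, 24 and 48 h) and entirely above it in 1, AXIN2 (30.9%, 31.1% and 30.0%). All 10 genes passed the filter on dim genes, LEF1 through its untreated arrays. The median change of all genes shifts with the scaling, and under cyclic loess the higher ones made up 49.4%, 49.5% and 49.0% of all calls at 6, 24 and 48 h, against 68.7%, 67.6% and 63.1% in the values as deposited, while the directions of the 10 genes stayed the same.

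**Figure D1:**
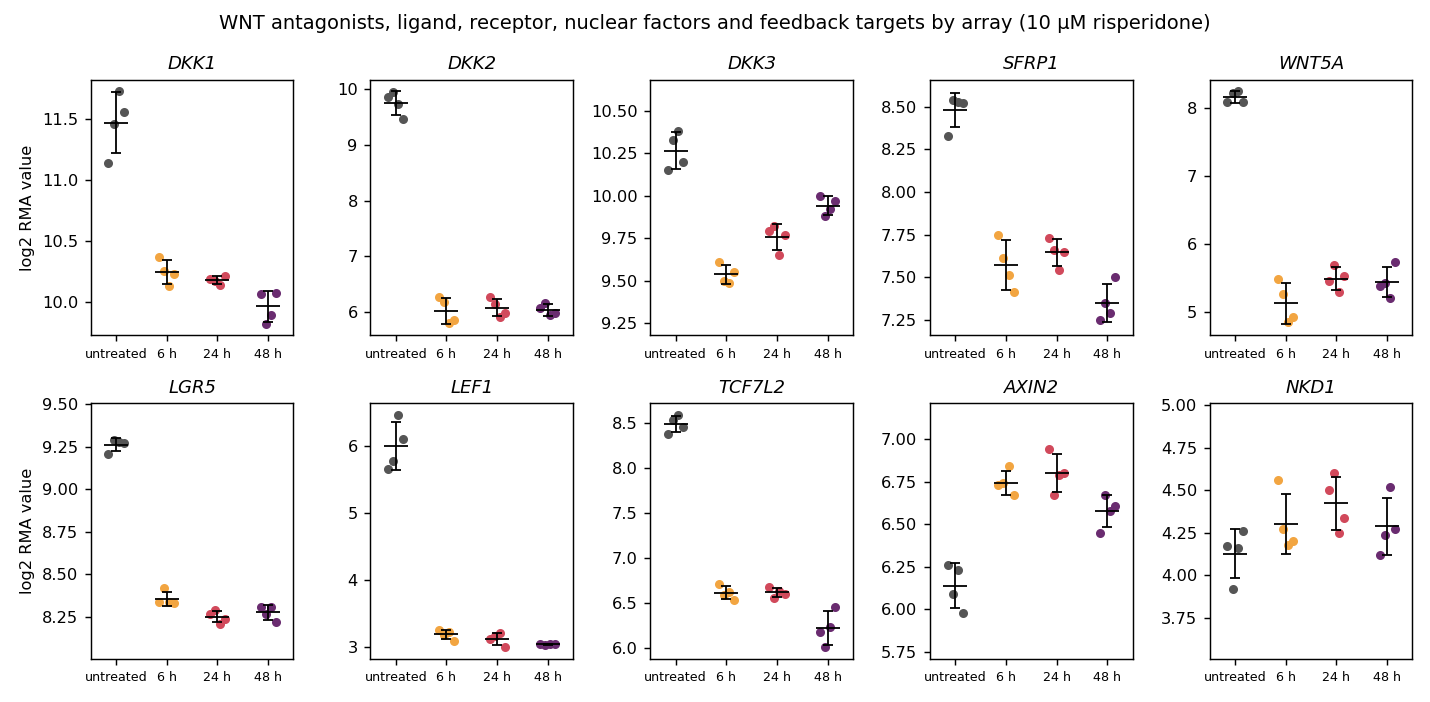
Log2 RMA value (vertical axis, scaled separately in each panel) of the 10 genes in the 16 arrays, by group. Points are arrays, the horizontal bars are group means and the error bars are SD (n = 4 arrays). In 8 panels the 12 risperidone arrays all lie below the untreated arrays, in that of AXIN2 they all lie above them, and in that of NKD1 the groups overlap.

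Promoter windows from RefSeq (GRCh38.p14), which run from 250 bases before to 50 bases after a transcription start, were matched for 4 of the 10 genes, WNT5A, LEF1, DKK1 and TCF7L2, with 7 windows in all. To show the sequence at the start of genes that fell, the windows were searched on both strands for the TCF and LEF core, as CTTTGAT or CTTTGTT, for the core GGAATG bound by TEAD factors and for the AP-1 site TGACTCA. Shown are the DKK1 window (chr10:52314031-52314330, plus strand) and one of the 3 TCF7L2 windows (chr10:113126383-113126682, plus strand), the ones that held a match, which is in capitals.
DKK1: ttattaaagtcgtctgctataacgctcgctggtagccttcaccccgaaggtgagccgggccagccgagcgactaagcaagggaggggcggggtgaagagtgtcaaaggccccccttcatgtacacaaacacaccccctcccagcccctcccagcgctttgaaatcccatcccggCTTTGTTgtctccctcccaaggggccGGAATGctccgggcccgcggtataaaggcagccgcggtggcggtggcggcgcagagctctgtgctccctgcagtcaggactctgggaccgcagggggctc
TCF7L2: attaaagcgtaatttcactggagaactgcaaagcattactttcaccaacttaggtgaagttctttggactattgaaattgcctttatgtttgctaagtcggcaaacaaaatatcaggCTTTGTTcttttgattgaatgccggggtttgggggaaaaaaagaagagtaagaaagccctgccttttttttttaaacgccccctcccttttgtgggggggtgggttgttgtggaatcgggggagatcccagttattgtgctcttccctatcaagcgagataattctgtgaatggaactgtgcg
In DKK1 the CTTTGTT match begins 76 bases before the start and the GGAATG match 50 bases before it. In TCF7L2 the CTTTGTT match begins 133 bases before that start, which lies inside the gene. The window at the first base of TCF7L2 (chr10:112949997-112950296) held no match. The DKK1 matches do not overlap each other, and the other 5 windows held none of these letters. Of all 35116 windows, 2.62% held CTTTGAT, 5.2% CTTTGTT, 14% GGAATG and 4.95% TGACTCA. A match is a run of letters and not a measured binding site. No promoter activity was measured in these samples.

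Among the secreted antagonists, DKK2, which binds LRP5 and LRP6 and can block or weakly activate the receptor depending on the cell, fell at the 3 times. The untreated arrays held 9.86, 9.95, 9.74 and 9.46, the 6 h arrays 6.27, 6.18, 5.80 and 5.86, the 24 h arrays 6.27, 6.14, 5.92 and 5.99, and the 48 h arrays 6.07, 6.17, 5.94 and 5.98. All 12 treated arrays lay more than 3 log2 units below the lowest untreated array. DKK2 was 13.2-fold lower at 6 h (-3.73 ± 0.12, limma adjusted p = 9.29e-14), 12.8-fold lower at 24 h and 13.1-fold lower at 48 h. No difference between exposure times passed the test, and between 48 h and 6 h it was 0.01 (95% interval -0.23 to 0.26). Its other probe set changed by -2.75, -2.83 and -2.70 across the exposure times, ending between 3.52 and 3.83 in treated arrays.

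DKK1, the best known LRP6-binding antagonist and a common beta-catenin target, has a single probe set. It stood at 11.14, 11.46, 11.73 and 11.56 in untreated arrays, 10.37, 10.25, 10.13 and 10.23 at 6 h, 10.19, 10.17, 10.14 and 10.21 at 24 h, and 10.06, 9.82, 9.89 and 10.07 at 48 h. The groups of treated arrays lay below every untreated array. DKK1 was 2.34-fold lower at 6 h (-1.23 ± 0.10, adjusted p = 1.02e-08), 2.45-fold lower at 24 h (-1.30 ± 0.10) and 2.85-fold lower at 48 h (-1.51 ± 0.10). The further difference between 48 h and 6 h was -0.29 ± 0.10 (limma adjusted p = 0.0289). This call was lost when 6 h replicate 1, 2 or 4, or 48 h replicate 2 or 3, was left out (adjusted p = 0.0502 to 0.0911).

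SFRP1, a decoy that carries a Frizzled-like WNT-binding domain, stood at 8.33, 8.54, 8.53 and 8.52 in untreated arrays, 7.75, 7.61, 7.51 and 7.41 at 6 h, 7.73, 7.66, 7.54 and 7.65 at 24 h, and 7.25, 7.35, 7.29 and 7.50 at 48 h. No treated array reached the untreated range. It was 1.88-fold lower at 6 h (-0.91 ± 0.07, adjusted p = 2.13e-08), 1.78-fold lower at 24 h and 2.19-fold lower at 48 h (-1.13 ± 0.07). Between 48 h and 24 h it fell by 0.30 ± 0.07 (limma adjusted p = 0.00646). The difference between 48 h and 6 h, -0.22 ± 0.07 (adjusted p = 0.0295), was lost without 6 h replicate 1 or 2 or 48 h replicate 1, 2 or 3 (adjusted p = 0.0548 to 0.107) and with only the 8 arrays compared (adjusted p = 0.0586). All its 4 probe sets were lower at 6 and 48 h, by 0.29 to 0.91 and by 0.41 to 1.13, and 3 of them passed at 24 h. Their mean changed by -0.56, -0.48 and -0.74.

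DKK3, a more divergent member of the family whose place in WNT signalling is less clear, fell the least of the antagonists and was nearer to untreated at the later times. Untreated arrays held 10.15, 10.33, 10.38 and 10.20, the 6 h arrays 9.61, 9.50, 9.49 and 9.55, the 24 h arrays 9.79, 9.82, 9.65 and 9.77, and the 48 h arrays 10.00, 9.88, 9.92 and 9.97. Each group of treated arrays was separate from the others and below the untreated arrays. The change was -0.73 ± 0.06 at 6 h (adjusted p = 1.01e-08), -0.51 ± 0.06 at 24 h and -0.32 ± 0.06 at 48 h (adjusted p = 0.000103). Expression at 48 h was higher than at 6 h by 0.41 ± 0.06 (limma adjusted p = 4.19e-05). The step between 24 h and 6 h was 0.22 ± 0.06 (adjusted p = 0.0505), and it passed under 10 of 19 alternatives (adjusted p = 0.00929 at the lowest and 0.165 at the highest). The step between 48 h and 24 h was 0.19 ± 0.06 (adjusted p = 0.0207). The second step was lost without 24 h replicate 3 or 48 h replicate 1 (adjusted p = 0.0784 and 0.0630) and with the mean of the gene's 6 probe sets (0.09, adjusted p = 0.241).

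The probe sets of DKK3 did not move alike over time. In the fit of all probe sets, 5 of its 6 were lower at 6 h, when 11.3% of all probe sets were, by 0.23 to 1.04, and the remaining one, which averaged 3.25 in untreated arrays, changed by 0.01. Between 48 h and 6 h, 4 of the 6 passed as higher (10.8% of all probe sets did), by 0.27 to 0.54. Of the 2 that did not pass, one, 11734702_a_at, changed by 0.35 (adjusted p = 0.0761) and the dim one by 0.02.

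WNT5A, a ligand that acts mostly through routes without beta-catenin, among them the receptor ROR2, fell at the 3 times. It stood at 8.09, 8.22, 8.24 and 8.08 in untreated arrays, 5.49, 5.26, 4.85 and 4.92 at 6 h, 5.45, 5.69, 5.29 and 5.53 at 24 h, and 5.38, 5.43, 5.21 and 5.73 at 48 h. The treated groups overlapped one another and lay far below the untreated arrays. WNT5A was 8.15-fold lower at 6 h (-3.03 ± 0.13, limma adjusted p = 3.83e-12), 6.35-fold lower at 24 h and 6.59-fold lower at 48 h. The level was higher by 0.36 ± 0.13 at 24 h than at 6 h and by 0.31 ± 0.13 at 48 h than at 6 h, without passing (adjusted p = 0.197 and 0.0787). Without 6 h replicate 1 both differences passed (0.48 and 0.43, adjusted p = 0.0481 and 0.0130), and without 48 h replicate 3 the second did (0.38, adjusted p = 0.0416). Of its 5 probe sets, the 3 brightest in untreated arrays (8.16, 6.20 and 5.05) changed by -3.03, -2.49 and -1.23 at 6 h. The other 2 averaged 3.61 and 3.46 in untreated arrays and changed by -0.13 and -0.09 without passing, and the first of them passed as lower at 24 and 48 h (-0.26 and -0.20). With the mean of the 5 the change of WNT5A was -1.40, -1.26 and -1.32.

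LGR5, a receptor for R-spondins that strengthens WNT signals and marks stem cells in several epithelia, changed by about 2-fold with little spread. Its values were 9.21, 9.29, 9.28 and 9.27 in untreated arrays, 8.34, 8.42, 8.34 and 8.33 at 6 h, 8.27, 8.29, 8.21 and 8.24 at 24 h, and 8.31, 8.27, 8.31 and 8.22 at 48 h. The highest treated array, at 8.42, lay below the lowest untreated array, at 9.21. The change was -0.91 ± 0.04 at 6 h (1.87-fold lower, adjusted p = 6.78e-12), -1.01 ± 0.04 at 24 h and -0.99 ± 0.04 at 48 h. Differences between exposure times did not pass, the widest being -0.11 between 24 h and 6 h (95% interval -0.19 to -0.02, adjusted p = 0.234). The other probe set also fell, by 0.67, 0.72 and 0.63.

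Both nuclear factors fell. LEF1, the DNA-binding partner of beta-catenin that is also one of its targets, stood at 5.67, 5.78, 6.47 and 6.11 in untreated arrays, 3.26, 3.18, 3.22 and 3.10 at 6 h, 3.13, 3.16, 3.21 and 3.00 at 24 h, and 3.05, 3.03, 3.05 and 3.05 at 48 h. All treated values lay under 3.51, the level below which the dimmest 25% of probe sets fall, so only a bound on the fall can be given. Against that level LEF1 was at least 5.65-fold lower at each of the 3 times, where the measured means were 3.19 at 6 h, 3.13 at 24 h and 3.05 at 48 h, against 6.01 in untreated arrays (limma adjusted p = 3.36e-12 at 6 h). With LEF1 at this bound the medians of the 10 genes were unchanged. The call rests on 1 of 9 probe sets, 11726333_s_at, and with the mean of the 9 the gene was dim and was not tested, which left 7 genes lower and 2 higher of 9 tested at each time. In the array maker's naming the suffix _s_at marks probes shared by several transcripts. The other 8 averaged between 2.95 and 3.46 in untreated arrays. They changed by -0.39 to 0.05 at 6 h, and 1 of them, 11746635_a_at, passed as lower at the 3 times (-0.39, -0.39 and -0.41). Another, 11736568_x_at, passed as lower at 24 and 48 h (-0.27 and -0.22), and 11726332_a_at passed as higher at 24 h (0.24).

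TCF7L2, another DNA-binding partner of beta-catenin, stood at 8.38, 8.53, 8.59 and 8.46 in untreated arrays, 6.71, 6.59, 6.62 and 6.54 at 6 h, 6.68, 6.56, 6.64 and 6.60 at 24 h, and 6.18, 6.01, 6.24 and 6.46 at 48 h. The 48 h arrays lay below every other array. The change was -1.88 ± 0.08 at 6 h (3.67-fold lower, adjusted p = 1.92e-12), -1.87 ± 0.08 at 24 h and -2.27 ± 0.08 at 48 h (4.81-fold lower). Between 48 h and 24 h TCF7L2 fell by 0.40 ± 0.08 (limma adjusted p = 0.000816), and between 48 h and 6 h by 0.39 ± 0.08 (adjusted p = 0.000744). With the mean of its 7 probe sets TCF7L2 still passed against untreated, with smaller changes (-0.55, -0.52 and -0.64), and the difference between 48 h and 6 h was lost (-0.10, adjusted p = 0.0894). In the fit of all probe sets 4 of the 7 passed as lower at each time. They fell by 0.33 to 1.88 at 6 h, and the 3 others, at 3.12 to 3.14 in untreated arrays, changed by -0.04 to 0.06.

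**Figure D2:**
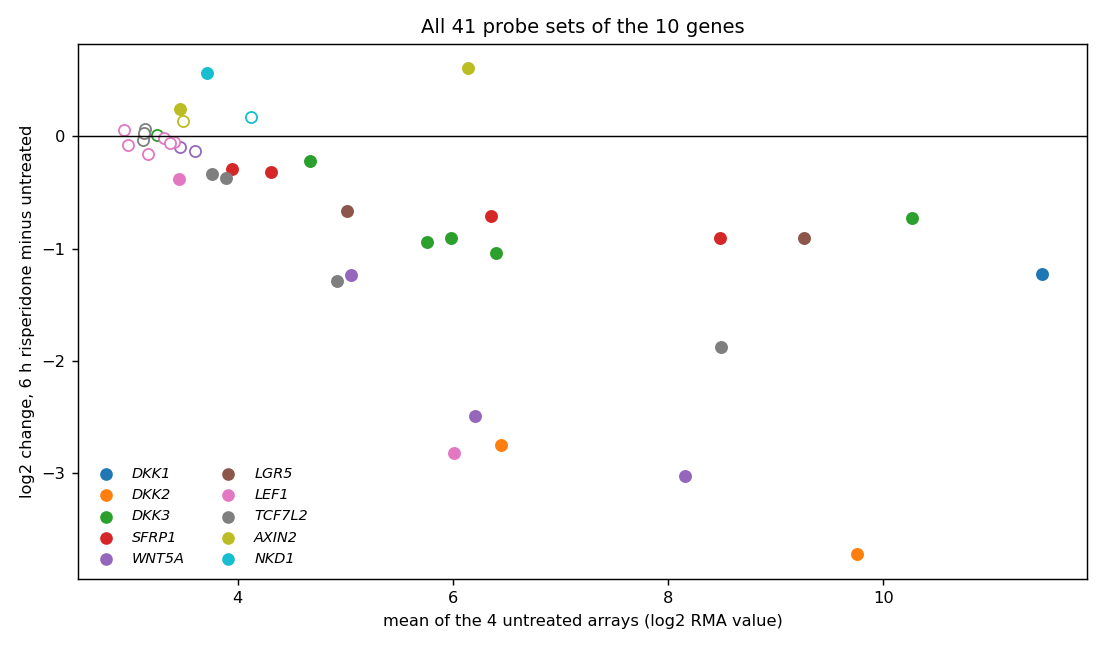
Change at 6 h (vertical axis, log2, risperidone minus untreated) of the 41 probe sets of the 10 genes against their untreated mean (horizontal axis, log2 RMA value). Filled points passed an adjusted p of 0.05 in the fit of 49293 probe sets, and open points did not. The 15 open points all lie at or below 4.13 on the horizontal axis.

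AXIN2, a scaffold of the complex that degrades beta-catenin and the most widely used readout of the pathway, moved the other way. It stood at 6.26, 6.09, 6.23 and 5.98 in untreated arrays, 6.73, 6.74, 6.84 and 6.67 at 6 h, 6.94, 6.67, 6.79 and 6.80 at 24 h, and 6.45, 6.67, 6.58 and 6.61 at 48 h. Every treated array lay above every untreated one. The rise was 0.61 ± 0.07 at 6 h (1.52-fold, limma adjusted p = 1.64e-06), 0.66 ± 0.07 at 24 h and 0.44 ± 0.07 at 48 h (1.35-fold). Between 48 h and 24 h AXIN2 fell by 0.22 ± 0.07 (adjusted p = 0.0253), a call lost without 24 h replicate 1 or 4 or 48 h replicate 1 (adjusted p = 0.0505 to 0.0907). A second probe set, 11718453_a_at, rose by 0.24, 0.34 and 0.24 and passed at the 3 times, and the third did not pass. These 2 sets averaged 3.46 and 3.49 in untreated arrays, under the level of 3.51 given above for LEF1. The mean of the 3 probe sets of AXIN2 rose by 0.33, 0.37 and 0.22.

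NKD1, which binds Dishevelled and dampens the signal, gave an answer that depended on the probe set. The one with the higher mean stood at 4.17, 3.92, 4.16 and 4.26 in untreated arrays, 4.56, 4.27, 4.18 and 4.20 at 6 h, 4.50, 4.60, 4.25 and 4.34 at 24 h, and 4.12, 4.24, 4.52 and 4.27 at 48 h, with overlap between all groups. It changed by 0.18 ± 0.10 (adjusted p = 0.167), 0.30 ± 0.10 (adjusted p = 0.0243) and 0.16 ± 0.10 (adjusted p = 0.200) at 6, 24 and 48 h. The 24 h call was lost without untreated replicate 2 or 24 h replicate 1 or 2 (limma adjusted p = 0.0629 to 0.0870) and with cyclic loess (0.22, adjusted p = 0.0925).

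The other NKD1 probe set, 11733327_at, stood at 3.70, 3.68, 3.65 and 3.83 in untreated arrays, 4.32, 4.23, 4.32 and 4.25 at 6 h, 4.26, 4.45, 4.15 and 4.12 at 24 h, and 4.68, 4.48, 4.63 and 4.59 at 48 h. Here all treated arrays lay above the untreated ones and the 48 h arrays above all others. At 6 h it rose by 0.57 ± 0.07, at 24 h by 0.53 ± 0.07 and at 48 h by 0.88 ± 0.07, and between 48 h and 24 h by 0.35 ± 0.07 (limma, fit of all probe sets, adjusted p = 0.00162). With the mean of both probe sets NKD1 passed at 6 h and 48 h as well (0.37 and 0.52, adjusted p = 0.000378 and 8.24e-06). Both sets lie under 5.85, the median level of the genes.

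**Figure D3:**
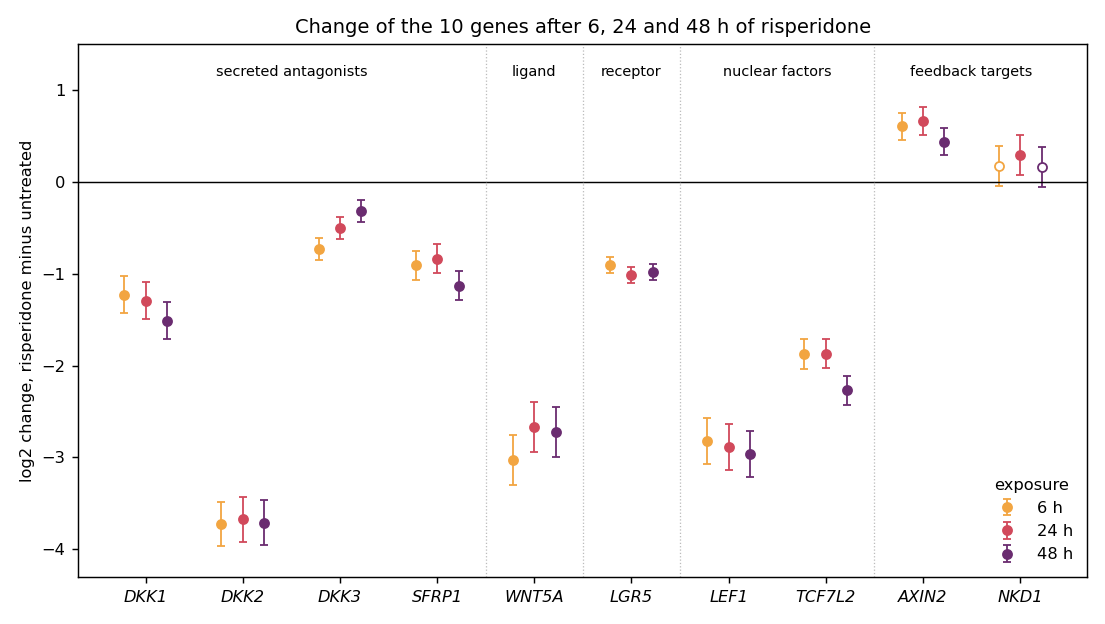
Log2 change (vertical axis, risperidone minus untreated) of the 10 genes at 6, 24 and 48 h, ordered by role, with 95% intervals from limma (n = 4 arrays a group, the same untreated arrays for the 3 times). Filled points passed an adjusted p of 0.05 and open points did not. DKK2, WNT5A and LEF1 lie lowest, between -3.73 and -2.67, DKK3 moves towards 0 with time, and AXIN2 lies above 0 throughout.

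Between exposure times, 0 of the 10 genes passed for 24 h against 6 h in limma, where 0.855% of all genes were called lower and 1.55% higher, while 3 had an unadjusted p under 0.05 (DKK3, WNT5A and LGR5), as did 13.9% of all genes. For 48 h against 24 h, SFRP1, TCF7L2 and AXIN2 were lower (15.1% of all genes) and DKK3 was higher (13.5%). For 48 h against 6 h, DKK1, SFRP1 and TCF7L2 were lower (17.0%) and DKK3 was higher (16.7%). Of the 41 probe sets, 23 were lower and 3 higher at 6 h (11.3% and 21.5% of all probe sets), 23 and 5 at 24 h (11.8% and 20.7%), and 24 and 3 at 48 h (14.6% and 23.0%). Between times, 0 were lower and 2 higher for 24 h against 6 h (0.976% and 0.734%), 5 and 2 for 48 h against 24 h (7.98% and 8.47%), and 4 and 5 for 48 h against 6 h (10.3% and 10.8%).

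The rest of the pathway moved in both directions. The lists took in 109 further symbols, of which 104 were measured and 77 passed the filter on dim genes. At 6 h 20 of the 77 were lower and 32 higher, when 16.7% and 36.6% of all genes were, with a median change of 0.09, equal to that of all genes to 2 decimals. At 24 h 21 were lower and 28 higher (16.9% and 35.2% of all genes), and at 48 h 23 were lower and 24 higher (21.0% and 36.0%). Under cyclic loess 24 were lower and 22 higher at 6 h, when 3223 and 3149 of all 13680 genes were. With that scaling the calls of WNT6, TLE3 and TCF7L1 at 6 h, ZNRF3 at 24 h, and TCF7L1 and RSPO4 at 48 h, all named below, were lost, and that of ROR1 at 6 h was lost with array medians subtracted and with quantile normalization.

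Further extracellular antagonists leaned down at 6 h, as the 4 above did at all 3 times. Of the 16 listed, 10 were dim and were not tested. Of 6 tested, 5 were lower and 1 higher at 6 h (16.7% and 36.6% of all genes, list median -0.56). At 24 h 4 were lower and 1 higher (16.9% and 35.2%), and at 48 h 3 and 1 (21.0% and 36.0%). TPBG, a surface glycoprotein that inhibits WNT signalling, changed by -2.87, -2.49 and -2.69 at 6, 24 and 48 h. SERPINF1, a secreted serpin that binds LRP6, changed by -0.72, -0.66 and -0.52. FRZB, a relative of SFRP1, fell by 0.69 at 6 h and 0.21 at 24 h, and its change at 48 h was -0.01 (limma adjusted p = 0.904), so that, as with DKK3, the later values lay nearer to untreated. KREMEN2, a receptor that DKK proteins use to remove LRP6, rose by 0.51, 0.81 and 0.56. SFRP2 was dim and was not tested.

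Among 9 tested ligands, 2 were lower and 3 higher at 6 h (16.7% and 36.6% of all genes). WNT5B, the closest relative of WNT5A, changed by -1.26, -1.3 and -1.11, and WNT3 by -0.89, -0.84 and -0.94. WNT6 rose by 0.39, 0.60 and 0.55, and WNT10A, at a low level, by 0.32, 0.27 and 0.36. WLS, which carries WNT proteins to the cell surface, changed by -1.76, -1.74 and -1.89. Of 15 receptors, 4 were lower, 4 were higher and 7 did not pass at 6 h (16.7% of all genes were lower and 36.6% higher). FZD9, among those higher, averaged 3.47 in untreated arrays and likewise passed the dim filter only through its treated arrays. The Frizzled genes FZD6 (-1.73, -1.35 and -1.27), FZD7 (-1.03, -0.98 and -1.08) and FZD2 (-0.53, -0.71 and -1.02) fell at the 3 times, and so did the WNT5A receptor ROR1 (-0.20, -0.37 and -0.35). ROR2, a kinase receptor for WNT5A, rose by 0.71, 0.69 and 0.71.

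In the R-spondin branch, 1 of 5 tested genes was lower and 2 were higher at 6 h (16.7% and 36.6% of all genes). LGR4, the relative of LGR5, changed by -0.47, -0.28 and -0.44. ZNRF3, a ubiquitin ligase that removes Frizzled receptors, rose by 0.32 at 6 h and 0.25 at 24 h, with 0.14 at 48 h (limma adjusted p = 0.0929). Its relative RNF43 did not pass (0.17, 0.20 and -0.03). RSPO4, at a low level, rose by 0.21, 0.21 and 0.14, and RSPO3 was dim.

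Inside the cell, 12 of 19 tested genes of beta-catenin degradation and Dishevelled were higher and 2 lower at 6 h (36.6% and 16.7% of all genes, list median 0.34). At 24 h 11 were higher and 2 lower (35.2% and 16.9%), and at 48 h 10 and 2 (36.0% and 21.0%). Under cyclic loess 10 were higher and 2 lower at 6 h, when 3149 and 3223 of all 13680 genes were. DVL1, a Dishevelled gene, rose by 0.37, 0.33 and 0.67, DACT3, a Dishevelled-binding inhibitor, by 0.54, 0.58 and 0.50, and FRAT2, which binds the kinase GSK3, by 0.64 and 0.46 at 6 and 24 h. The other change of FRAT2, at 48 h, was 0.17 (limma adjusted p = 0.0819). DACT1, a relative of DACT3, changed by -1.5, -1.48 and -1.92. The beta-catenin gene CTNNB1 was lower by a small amount, -0.17 at each of the 3 times (limma adjusted p = 0.0251, 0.0255 and 0.0267). NKD2 was dim.

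Of 11 tested nuclear factors besides LEF1 and TCF7L2, 8 were higher and 1 lower at 6 h (36.6% and 16.7% of all genes, list median 0.17). At 24 h 6 were higher and 1 lower (35.2% and 16.9%), and at 48 h 4 and 2 (36.0% and 21.0%). Under cyclic loess 3 were higher and 1 lower at 6 h, when 3149 and 3223 of all 13680 genes were. The co-repressor genes TLE1 (0.38, 0.41 and 0.28) and TLE5 (0.39, 0.44 and 0.40) rose, and BCL9L, a co-activator that binds beta-catenin, changed by -0.48, -0.46 and -0.33. TLE3 rose by 0.22 at 6 h and fell by 0.78 at 48 h. TCF7L1 rose by 0.21 at 6 h and 0.16 at 48 h and did not pass at 24 h (0.11). TCF7 was not analysed here.

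Other genes known as beta-catenin targets did not move one way. Of 13 tested, 4 were lower and 3 higher at 6 h (16.7% and 36.6% of all genes, list median -0.02). At 24 h 6 were lower and 3 higher (16.9% and 35.2%), and at 48 h 6 and 1 (21.0% and 36.0%). MYC was called higher at the 3 times, with changes of 0.595, 0.515 and 0.40. The adhesion receptor gene CD44 changed by -3.43, -3.12 and -3.21, the receptor gene TNFRSF19 by -1.3, -1.10 and -1.70, and JUN by -1.22, -1.24 and -0.75. MSX2, a homeobox gene, changed by -0.11 at 6 h (limma adjusted p = 0.277) and fell by 0.67 at 24 h and 1.23 at 48 h. CD44 is also in the mesenchymal marker list below, and ZNRF3 and RNF43 are in 2 lists.

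**Figure D4:**
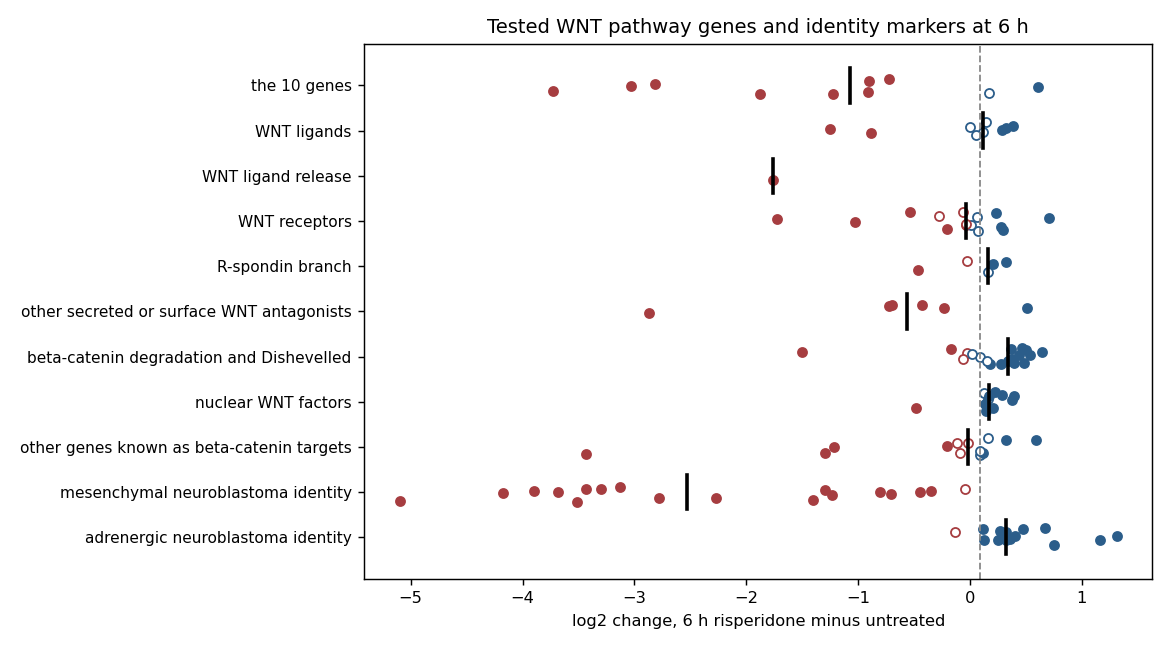
Log2 change at 6 h (horizontal axis, risperidone minus untreated) of the tested genes of each list (rows). Points are genes, filled where an adjusted p of 0.05 was passed, blue above 0 and red below 0. Black bars are list medians and the dashed line is the median of all 13680 genes, 0.09. Antagonists and the mesenchymal markers lie mostly to the left, and genes of beta-catenin degradation and adrenergic markers mostly to the right.

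Markers of the mesenchymal cell state were mostly lower and those of the adrenergic cell state mostly higher. Of 18 tested mesenchymal markers, 17 were lower and 0 higher at 6 h (16.7% and 36.6% of all genes, list median -2.53). At 24 h 17 were lower and 0 higher (16.9% and 35.2%, list median -2.21), and at 48 h 17 and 1 (21.0% and 36.0%, list median -2.41). The list's 2 brightest probe sets, brightness being no measure of abundance between genes, were those of TWIST1, the exception, with changes of -0.04, -0.02 and 0.17 (limma adjusted p = 0.00562 at 48 h), and VIM, an intermediate filament gene (-1.24, -1.31 and -1.48). The summed signal of the 20 measured markers, as log2 and set mostly by the brightest, was 13.6 to 13.7 at 6 h, 13.7 at 24 h and 13.7 to 13.8 at 48 h, against 14.8 to 15 in untreated arrays. Of 16 adrenergic markers, 15 were higher and 0 lower at 6 h (36.6% and 16.7% of all genes, list median 0.32). At 24 h 14 were higher and 1 lower (35.2% and 16.9%), and at 48 h 14 and 0 (36.0% and 21.0%). The 2 brightest were those of STMN2 (0.27, 0.29 and 0.37) and CHGA (0.41, 0.52 and 0.60). The adrenergic list had summed signals of 15.7 at 6 h and 24 h and 15.8 at 48 h, against 15.3 to 15.4 in untreated arrays. The part of these cell states in the results was not tested.

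Markers of immune, endothelial, epithelial and Schwann cells were also listed, and many were dim. Of the measured immune markers 5 of 7 were dim, PTPRC among them, as were 3 of 8 endothelial, 5 of 8 epithelial and 3 of 5 Schwann cell markers. Of the tested ones, at 6 h CD68 fell by 1.51 while CD3E, the other immune marker, changed by 0.21 (limma adjusted p = 0.242), and S100B rose by 0.61 while SOX10, the other Schwann cell marker, changed by 0.08 (adjusted p = 0.512). Of 5 endothelial markers KDR passed as higher (0.21), and of 3 epithelial markers 0 passed in limma at that time, with 1, KRT19, at an unadjusted p under 0.05 (change 0.20).

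The genes whose pattern was most like that of each member were found by Pearson correlation over the 16 arrays, given as a description. The arrays fall into untreated and treated groups, so this measure is largely set by the step between them. DKK2 was most like the matrix gene EFEMP1 (r = 0.996) and PRRX1 (r = 0.995), and LGR5 most like the matrix gene THBS2 (r = 0.993) and PRRX1 (r = 0.992). WNT5A was most like the gap junction gene GJA1 (r = 0.998) and the caveolin gene CAV2 (r = 0.997), which also had their lowest level at 6 h (changes of -3.29 and -3.79, against -2.83 and -3.40 at 48 h). LEF1 was most like CCN2 and WT1 (r = 0.995 each), TCF7L2 most like TUBB6 and KITLG (r = 0.994 each), SFRP1 most like the actin-binding genes TPM1 (r = 0.990) and COTL1 (r = 0.987), and DKK1 most like KLF6 (r = 0.990) and SPDL1 (r = 0.989). DKK3 was most like RGS10 and RND3 (r = 0.976 each), which were also nearer to untreated at 48 h (-0.34 and -0.26) than at 6 h (-0.98 and -0.70). AXIN2 was most like ARVCF (r = 0.955) and SYBU (r = 0.946). For NKD1 the nearest genes, GLIPR1L1 and OR4X2, reached 0.866 and 0.767.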

How the data were processed

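Per the submitters' processing notes, the authors made the deposited log2 values with RMA, 1 value per probe set of the Human Genome U219 array; which software ran it is not stated there. RMA equalises intensities between arrays, so a change in total RNA cannot be seen, and no detection calls were used. Of 49386 probe sets, 93 were controls and 45253 had 1 gene symbol in the platform annotation of 2019. Each gene was represented by its probe set of highest mean, and the lowest 25% of genes (mean under 3.65) were left out, leaving 13680. Array medians lay between 4.5 and 4.62. Groups were compared with limma 3.58.1 in R 4.3.3 (lmFit, eBayes, all 16 arrays, two-sided, Benjamini-Hochberg within each contrast, threshold 0.05). A second fit took all 49293 probe sets without a filter. Replicates are labelled biological, but no separate cultures are described, so the p-values may reflect technical spread, and 4 arrays a group limit the precision.

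The 10 genes and the lists were chosen with earlier results of these data known. Named were all members, up to 4 genes of smallest moderated F p in each pathway list, a short set of relatives, the 2 genes of brightest probe set in the marker lists for both cell states, and the 2 genes most like each member. MYC, FZD9, PTPRC, CD68, S100B, CD3E, SOX10, KDR and KRT19 were chosen after their values were seen. Promoter windows came from RefSeq tables of GRCh38.p14. Same-numbered replicates did not deviate together (r between -0.152 and 0.181, over 0.1 in 8 of 24 pairs). Alternatives covered probe set choice, dim filter, scaling, eBayes options, array weights, replicate block, fewer arrays, thresholds and each array left out.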

Additional observations from a re-analysis of the deposited data

Results flagged for a closer look

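Among 164 groups of 4 arrays (41 probe sets in 4 groups), 5 held an array that stood apart from the other 3 by Dixon's test, where chance gives about 1 in 20. In SFRP1, untreated replicate 1 stood at 8.33, with the others at 8.52 to 8.54. In LGR5, 6 h replicate 2 stood at 8.42, with the others at 8.33 to 8.34. In LEF1, 48 h replicate 2 stood at 3.03 and the others at 3.05. The rest were DKK3 11761963_at, with 48 h replicate 2 at 4.88 and the others at 4.66 to 4.68, and TCF7L2 11746404_a_at, a dim probe set, with 6 h replicate 1 at 3.09 and the others at 3.24. In LEF1 and this TCF7L2 set the other 3 values tie at 2 decimals, so that any gap passes the test. Both lie near the bottom of the scale.

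The change from untreated differed between exposure times in 8 of 30 tests of the 10 genes (limma, Benjamini-Hochberg over all genes), when 21.5% of such tests over all genes passed. Between 48 h and 6 h the differences were 0.405 for DKK3 (adjusted p = 4.19e-05), -0.393 for TCF7L2 (adjusted p = 0.000744), -0.285 for DKK1 (adjusted p = 0.0289) and -0.223 for SFRP1 (adjusted p = 0.0295). Between 48 h and 24 h they were -0.398 for TCF7L2 (adjusted p = 0.000816), -0.297 for SFRP1 (adjusted p = 0.00646), -0.223 for AXIN2 (adjusted p = 0.0253) and 0.185 for DKK3 (adjusted p = 0.0207). The untreated arrays do not enter these differences, but they do enter the estimate of the spread behind the p-values.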

How the results depend on the processing

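Of 591 values for the contrasts with untreated, 584 kept their direction and side of the threshold, 5 lost the call, 2 gained it and 0 reversed; those 7 all concern NKD1. These counts leave out LEF1 with the mean of probe sets, and LEF1 and NKD1 with the 50% filter, where they were dim and not tested. Of 561 between exposure times, 498 kept both, 22 lost the call, 18 gained it and 23 reversed, the last all among differences that had not passed. For 24 h against 6 h, the count of members called was 0, and 1 with the mean of probe sets, the 50% filter, medians subtracted, quantile normalization, cyclic loess, trend and robust options, array weights and the 8 arrays alone, and DKK3 was the gene. It ranged from 0 to 2 with single arrays left out. All genes called, 24 h against 6 h, were 329, with 839 under array weights, 113 at an adjusted p of 0.01, and 163 to 309 with single arrays left out. At an adjusted p of 0.01, members called were 2 for 48 h against 24 h and 2 for 48 h against 6 h, and all genes called were 2439 and 2997. With single arrays left out, members called were 2 to 4 in both. With the mean of probe sets, DKK2 was -0.0138 for 24 h against 6 h and 0.0463 for 48 h against 24 h, and NKD1 0.11 for 48 h against 24 h and 0.15 for 48 h against 6 h. With medians subtracted DKK2 was -0.005 for 48 h against 6 h. With array weights TCF7L2 was -0.00145 for 24 h against 6 h and DKK2 0.0133 for 48 h against 24 h. With single arrays left out, DKK2 ranged from -0.0233 to 0.133 (24 h against 6 h), -0.0633 to 0.0933 (48 h against 6 h) and -0.0933 to 0.0233 (48 h against 24 h), TCF7L2 from -0.02 to 0.0367 (24 h against 6 h), NKD1 from -0.0925 to 0.0708 (48 h against 6 h) and WNT5A from -0.15 to 0.0233 (48 h against 24 h). The cause was not tested. With the replicate number as a block, members called were 9, 10 and 9 against untreated at 6, 24 and 48 h and 0, 4 and 4 between times, the counts without it, and all genes called at 6 h were 7324 against 7288. The alternatives of the moderated F test and the scalings of the gene lists were chosen after seeing the data and left 9 members called, or 8 of the 8 that passed the 50% filter. RMA values near the bottom of the scale limit what can be said of LEF1 and NKD1.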
